A study of Saccharomyces cerevisiae with 18 samples.

Results

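The cytosolic chaperonin CCT of budding yeast (Saccharomyces cerevisiae) is built from 8 different subunits, and their genes, TCP1 (also called CCT1) and CCT2 to CCT8, were followed here by name. All 8 were found among the 7130 genes of the deposited count table. Poly(A) RNA was sequenced from log-phase cells grown in YPD, a rich glucose medium, at 25 °C. There were 3 libraries for each of 4 strains: CAY1221 (fes1Δ), CAY1290 (fes1ΔS), CAY1256 (fes1ΔL) and CAY1015 (WT). The labels give no further allele, selection marker or mating type. The 3 libraries of a strain come from independent RNA isolations, and the spread behind each p-value is that between isolations. The series also holds 6 heat-shock samples (37 °C for 30 minutes), which were not analysed here.

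CCT, also called TRiC, is a group II chaperonin: a pair of stacked rings, each with one copy of every subunit, that encloses an unfolded protein and folds it with the energy of ATP. Actin and the tubulins depend on it, and prefoldin, a separate jellyfish-shaped complex, hands them over to it. All subunit genes are essential in yeast, and no subunit can take the place of another in the ring. Fes1 is a nucleotide exchange factor of cytosolic Hsp70, the chaperone system that acts beside CCT on newly made proteins. The FES1 transcript is spliced into a short cytosolic and a long nuclear isoform, and the names fes1ΔS and fes1ΔL point to these isoforms, although the labels do not spell the alleles out.

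FES1 itself went against a label. It averaged 159 ± 8.59 CPM (counts divided by library size, in the usual scaling) in the libraries labelled fes1Δ, 1434 ± 80.2 CPM in fes1ΔS, 146 ± 3.27 CPM in fes1ΔL and 158 ± 7.49 CPM in WT (SD, n = 3 each). URA3 had 1590 to 1868 counts in the 3 libraries labelled fes1Δ and 0 to 3 counts in the other 9. Every direction below that involves fes1Δ rests on libraries whose label FES1 does not bear out, and they are called the libraries labelled fes1Δ. CPM here uses library sizes scaled by TMM, a size factor that assumes most genes to be unchanged. The libraries held 7608550 to 10246711 counts, and each CCT gene had 2391 to 4336 counts in every library. All 8 passed the expression filter, among 5719 genes tested.

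TCP1 and CCT2 mRNA were higher in the libraries labelled fes1Δ than in WT, by 1.15-fold and 1.13-fold, and the other 6 subunit genes did not pass the test. In fes1ΔS, TCP1 alone passed, at 1.18-fold of WT, while CCT2, again at 1.13-fold, did not pass. In fes1ΔL no subunit gene passed. All of these differences are small beside those of the Hsf1 targets given further down, and in a bulk culture more cells of a kind and more RNA per cell cannot be told apart.

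TCP1 encodes the alpha subunit of the ring. Its level was 358, 338 and 324 CPM in the fes1Δ-labelled libraries, 355, 348 and 347 CPM in fes1ΔS, 298, 303 and 304 CPM in fes1ΔL, and 293, 297 and 299 CPM in WT. On this scaling all 6 libraries of fes1Δ and fes1ΔS lay above all 6 of fes1ΔL and WT. The share of all genes split in this way was not computed. By total counts the replicate 3 labelled fes1Δ (316.9 CPM) fell just below fes1ΔL replicate 2 (317.3 CPM). The log2 fold change was 0.20 (SE 0.05, 95% interval 0.09 to 0.31, edgeR adjusted p = 0.0187) for the libraries labelled fes1Δ against WT, and 0.24 (SE 0.05, interval 0.13 to 0.35, edgeR adjusted p = 0.00759) for fes1ΔS against WT. These comparisons share the WT libraries. The call in fes1ΔS held without any 1 of its 6 libraries (edgeR adjusted p from 0.0165 to 0.0359). The call in fes1Δ was lost without WT replicate 1 (edgeR adjusted p = 0.0561) without the replicate 1 labelled fes1Δ (0.0593) in a fit of these 2 groups alone (0.124) and in the limma fits on the deposited FPKM (0.0543 to 0.081).

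CCT2 encodes the beta subunit. It had 386, 378 and 359.9 CPM in the fes1Δ-labelled libraries, 388, 357 and 376 CPM in fes1ΔS, 328, 332 and 336 CPM in fes1ΔL, and 333, 335 and 324 CPM in WT. As for TCP1, the fes1Δ and fes1ΔS libraries all lay above the fes1ΔL and WT libraries on this scaling, and the share of all genes split so was not computed. By total counts fes1ΔS replicate 2 (344.9 CPM) fell below fes1ΔL replicate 2 (348.0 CPM), as it did in the deposited FPKM (222.1 against 223.5). The log2 fold change against WT was 0.18 for the libraries labelled fes1Δ (interval 0.06 to 0.29, edgeR adjusted p = 0.0367) and 0.18 for fes1ΔS (interval 0.06 to 0.29, edgeR adjusted p = 0.0602). DESeq2 called CCT2 in fes1ΔS against WT (DESeq2 adjusted p = 0.0131). The fes1Δ call was lost without WT replicate 1 (edgeR adjusted p = 0.0702), WT replicate 3 (0.126), or the replicates 1 (0.0852) and 2 (0.106) labelled fes1Δ. In a fit of these 2 groups alone it was 0.167, without the expression filter 0.0502, and 0.163 to 0.19 in the limma fits on FPKM.

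**Figure D1:**
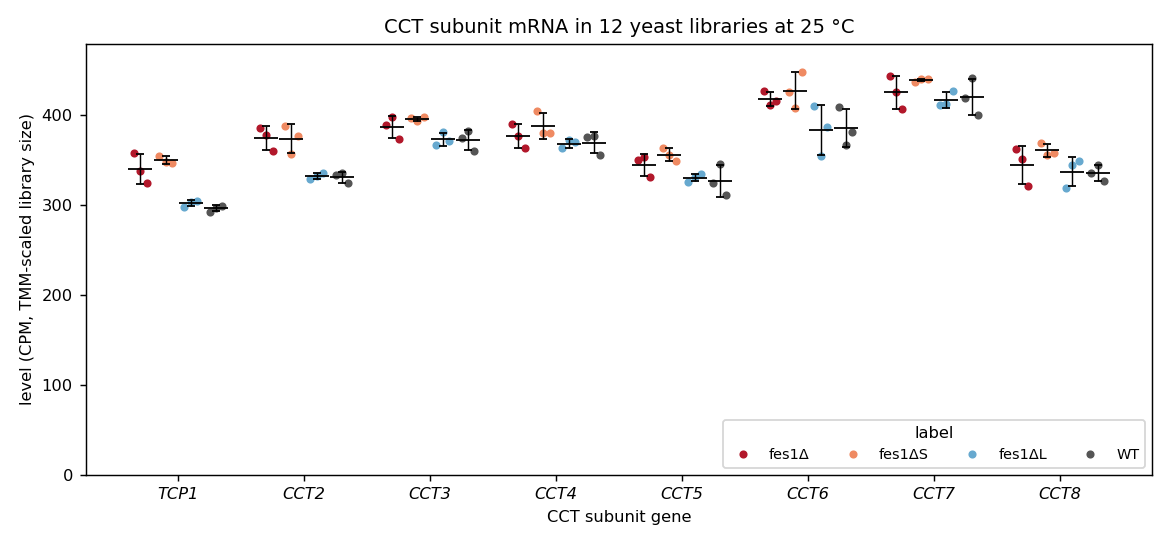
Level of each CCT subunit gene (y axis, CPM on the TMM-scaled library size) in the 12 libraries, with 1 point per library and the mean ± SD of 3 libraries as lines. TCP1 and CCT2 show the fes1Δ and fes1ΔS points, from 324 and 357 CPM upward, above all fes1ΔL and WT points, while the groups of CCT7 overlap. How many of all genes split in this way was not computed.

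CCT6, the zeta subunit, came next in the size of its difference. Its levels were 427, 411 and 416 CPM in the fes1Δ-labelled libraries, 425, 408 and 448 CPM in fes1ΔS, 409, 354 and 387 CPM in fes1ΔL, and 409, 367 and 381 CPM in WT. Its SD was the smallest of the 8 genes in fes1Δ (8.07 CPM) and the largest in fes1ΔS (20.4 CPM), fes1ΔL (27.7 CPM) and WT (21.4 CPM). Its log2 fold change against WT was 0.12 in the libraries labelled fes1Δ (edgeR adjusted p = 0.264) and 0.15 in fes1ΔS (edgeR adjusted p = 0.187).

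The remaining 5 genes encode the gamma (CCT3), delta (CCT4), epsilon (CCT5), eta (CCT7) and theta (CCT8) subunits. CCT3 lay at 373 to 397 CPM in the libraries labelled fes1Δ, 394 to 398 in fes1ΔS, 367 to 381 in fes1ΔL and 360.3 to 382 in WT. CCT4 lay at 363 to 389.8 CPM in fes1Δ, 379.6 to 404 in fes1ΔS, 363 to 372 in fes1ΔL and 356 to 376 in WT. For both genes the fes1ΔS libraries were all above WT, while the fes1Δ libraries overlapped WT. CCT5 lay at 331 to 353 CPM in fes1Δ, 349 to 363 in fes1ΔS, 326 to 334 in fes1ΔL and 311 to 346 in WT. CCT8 lay at 321 to 362 CPM in fes1Δ, 356 to 369 in fes1ΔS, 319 to 348 in fes1ΔL and 326 to 344 in WT. These 2 genes showed the same arrangement as CCT3 and CCT4. CCT7 lay at 407 to 443 CPM in fes1Δ, 437 to 440.0 in fes1ΔS, 411 to 426 in fes1ΔL and 400.2 to 441 in WT, so that all groups overlapped WT. Log2 fold changes of these 5 genes ran from 0.02 (CCT7) to 0.08 (CCT5) in the libraries labelled fes1Δ against WT and from 0.06 (CCT7) to 0.12 (CCT5) in fes1ΔS against WT. The edgeR adjusted p was at least 0.421 in fes1Δ and at least 0.215 in fes1ΔS.

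Over the whole ring, 2 of 8 genes were called higher and 0 lower in the libraries labelled fes1Δ against WT, where 12.9% of all tested genes were called (5.72% higher). Libraries did not overlap for 3 of 8 (TCP1, CCT2 and CCT6, all higher), against 11.6% of all genes. In fes1ΔS against WT, 1 of 8 was called higher, where 6.66% of all genes were called (3.22% higher). In that comparison 6 of 8 genes had fes1ΔS libraries entirely above WT on the TMM scaling, against 13.6% of all genes. With total counts fewer did, as given below. At an unadjusted p under 0.05 the edgeR counts were 2 of 8 in fes1Δ (26.1% of all genes) and 4 of 8 in fes1ΔS (20.9%), in fes1ΔS these being TCP1, CCT2, CCT5 and CCT6. The median log2 fold change of the 8 genes was 0.06 in fes1Δ and 0.11 in fes1ΔS, where the medians over all tested genes were 0.00 and 0.00. The highest edgeR adjusted p among the 8 was 0.879 in fes1Δ and 0.559 in fes1ΔS, both for CCT7.

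**Figure D2:**
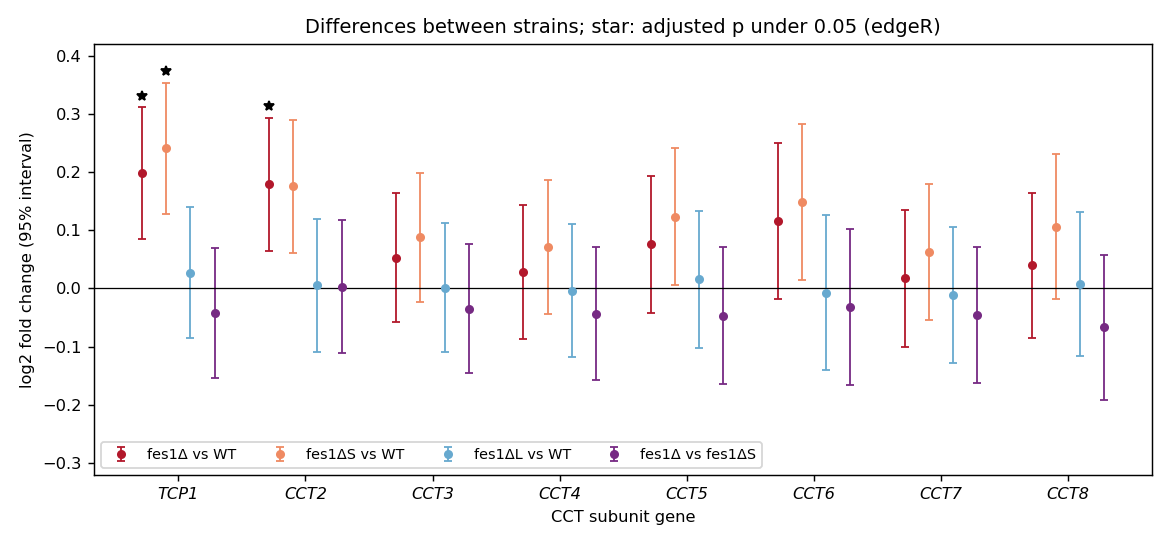
Log2 fold change of each CCT subunit gene (y axis, with its 95% interval) in 4 comparisons, with a star over those called by edgeR. The stars stand over TCP1 (0.20 in fes1Δ and 0.24 in fes1ΔS against WT) and CCT2 (0.18 in fes1Δ), and the fes1ΔL intervals all span 0.

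No subunit gene differed between fes1ΔL and WT by the test. The count was 0 of 8 with edgeR, 0 at an unadjusted p under 0.05 and 0 with DESeq2. Of all genes, edgeR called 0.0699%, and 4.06% had an unadjusted p under 0.05. The log2 fold changes ran from -0.01 to 0.03, and the 95% intervals of the 8 genes lay between -0.14 and 0.14. Changes beyond these bounds are outside the intervals. The size of change that the test could detect with 3 libraries was not computed.

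The libraries labelled fes1Δ and those of fes1ΔS were also set against each other. None of the 8 genes was called by edgeR, none had an unadjusted p under 0.05 and DESeq2 called 0. Of all genes, edgeR called 2.47%, and 12.6% had an unadjusted p under 0.05. Log2 fold changes ran from -0.07 (CCT8) to 0.00 (CCT2) and 7 of 8 were negative, with all intervals between -0.19 and 0.12. TCP1 differed by -0.04 (interval -0.15 to 0.07). The larger number of calls in fes1Δ than in fes1ΔS against WT is thus not a tested difference between these strains.

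The fes1ΔS libraries were also set against fes1ΔL in place of WT, so these comparisons share their fes1ΔS or fes1Δ libraries with those above. Against fes1ΔL, fes1ΔS had 1 of 8 genes called higher, TCP1, with a log2 fold change of 0.21 (interval 0.10 to 0.33, edgeR adjusted p = 0.022). Of all genes, 4.83% were called (2.76% higher). The call was lost without any 1 of the 6 libraries (edgeR adjusted p from 0.0621 to 0.0843), with total counts (0.14) and in the filtered limma fits on FPKM (0.057 and 0.0661). CCT2 stood at 0.17 (edgeR adjusted p = 0.0912). On the TMM scaling, the fes1ΔS libraries lay entirely above fes1ΔL for 7 of 8 genes, the exception being CCT6, against 12.6% of all genes. The libraries labelled fes1Δ had 0 of 8 genes called against fes1ΔL, where 9.51% of all genes were called, and 2 of 8 had an unadjusted p under 0.05 (21.7% of all genes). These were TCP1 (0.17, edgeR adjusted p = 0.0506) and CCT2 (0.17, edgeR adjusted p = 0.052), and DESeq2 called both. Libraries did not overlap for 3 of 8 genes, against 11.6% of all genes.

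The direction of the smaller differences depended on how libraries were scaled. With TMM, with DESeq2's median-ratio (RLE) size factors and with upper-quartile factors, all 8 genes had positive log2 fold changes against WT in both the libraries labelled fes1Δ and fes1ΔS. With total counts and no size factors, 3 were positive and 5 negative in fes1Δ (median -0.02), 5 were positive and 3 negative in fes1ΔS (median 0.02), and none was called. TCP1 was then at 0.11 in fes1Δ (edgeR adjusted p = 0.131) and 0.15 in fes1ΔS (edgeR adjusted p = 0.0558). Only TCP1 and CCT2 then had fes1ΔS libraries entirely above WT, CCT2 narrowly (lowest 344.9, highest WT 343.7 CPM). Against fes1ΔL only TCP1 did. In the libraries labelled fes1Δ, TCP1 and CCT2 stayed above WT and CCT6 overlapped it, and only CCT2 lay entirely above fes1ΔL. The share of all genes was not computed for total counts. The same scaling moved the calls over all genes to 218 higher and 940 lower in fes1Δ against WT (327 and 409 with TMM) and to 136 higher and 767 lower in fes1ΔS against WT (184 and 197 with TMM). It lowered the median of all genes to -0.08 in fes1Δ and -0.10 in fes1ΔS. A scaling moves all genes of a library alike, so the place of the CCT genes relative to that median is a single observation whichever scaling is used: all 8 lay above it, with their own median 0.06 above it in fes1Δ and 0.12 above it in fes1ΔS. As a share of all counts, the 8 genes together made up 0.292 ± 0.00831% in the libraries labelled fes1Δ, 0.299 ± 0.00511% in fes1ΔS, 0.294 ± 0.0027% in fes1ΔL and 0.292 ± 0.00464% in WT (SD, n = 3 each).

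**Figure D3:**
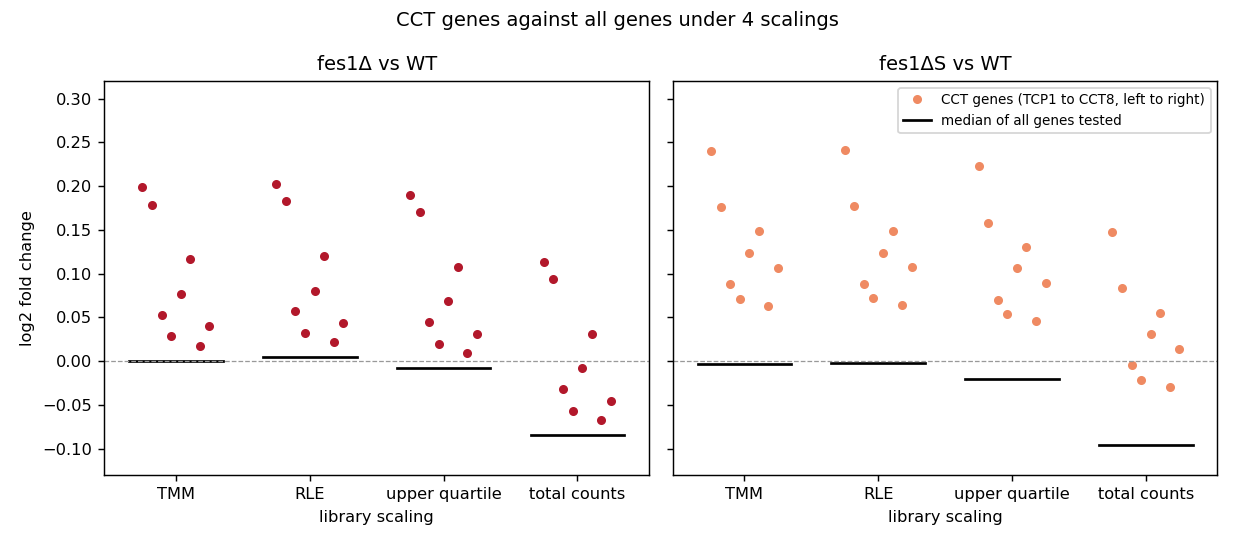
Log2 fold change against WT (y axis) of the 8 CCT genes under 4 library scalings (x axis), TCP1 to CCT8 from left to right within each, with a line at the median of all tested genes; libraries labelled fes1Δ in the left panel and fes1ΔS in the right. Under total counts points and line shift down together, leaving 3 and 5 of 8 points above 0, while the distance of the points from the line hardly depends on the scaling.

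Because every ring holds one of each subunit, the levels were also compared within the complex, per kilobase of coding sequence. In WT the order was CCT7 (254 CPM per kilobase), CCT6 (235), CCT4 (233), CCT3 (232), CCT2 (209), CCT8 (196), CCT5 (193) and TCP1 (176). CCT7, CCT6, CCT4 and CCT3 overlapped each with its neighbour over the 3 libraries, and so did CCT8 and CCT5. The steps that did not overlap in WT were CCT3 over CCT2, CCT2 over CCT8 and CCT5 over TCP1. CCT7 was first by its mean in all 4 strains and CCT6 was the second, with overlapping libraries in each strain.

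The order differed in part in the libraries labelled fes1Δ. CCT5 (204 CPM per kilobase), TCP1 (202) and CCT8 (202) overlapped there, and CCT2 (236) overlapped CCT4 (237). The step from CCT2 to the next lower gene was 1.16-fold in fes1Δ, where that gene was CCT5. In the other strains it was CCT8, and the step was 1.12-fold in fes1ΔS and 1.06-fold in both fes1ΔL and WT. These steps had no overlap in any strain, but the value in fes1Δ is for a different pair of genes. CCT6 (255) lay above CCT3 (241) without overlap in fes1Δ, as it did in fes1ΔS (260.3 and 247). In fes1ΔS likewise CCT8 (211), CCT5 (211) and TCP1 (208) overlapped, and CCT2 (236) overlapped CCT4 (244). In fes1ΔL the steps CCT4 (232) over CCT2 (209.7), CCT2 over CCT8 (198) and CCT5 (196) over TCP1 (179.6) did not overlap, the same steps in rank as in WT.

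The ratio of the highest to the lowest subunit level per kilobase was 1.28 to 1.35 in the libraries labelled fes1Δ, 1.25 to 1.32 in fes1ΔS, 1.38 to 1.42 in fes1ΔL and 1.36 to 1.51 in WT. The ratio of TCP1 to CCT7, a pair picked after their levels were seen, was 0.782 to 0.794 in the libraries labelled fes1Δ, 0.777 to 0.798 in fes1ΔS, 0.702 to 0.722 in fes1ΔL and 0.663 to 0.735 in WT. The fes1Δ and fes1ΔS libraries lay above all others in this ratio, which does not depend on library scaling. TCP1 was the lowest and CCT7 the highest subunit in WT, so this separation is not separate support for the TCP1 calls. The ratio of CCT2 to CCT7 was 0.909 to 0.927 in the libraries labelled fes1Δ and 0.846 to 0.927 in fes1ΔS. It was 0.821 to 0.840 in fes1ΔL and 0.793 to 0.845 in WT, and other pairs were not compared. TCP1 accounted for 11.02 ± 0.198% of the summed level per kilobase in fes1Δ, 11.1 ± 0.12% in fes1ΔS, 10.4 ± 0.0749% in fes1ΔL and 10.2 ± 0.337% in WT (SD, n = 3 each). No test was made of these shares. In WT, the CCT genes stood above 84.3% (TCP1) to 89.1% (CCT7) of 5549 genes in level per kilobase.

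**Figure D4:**
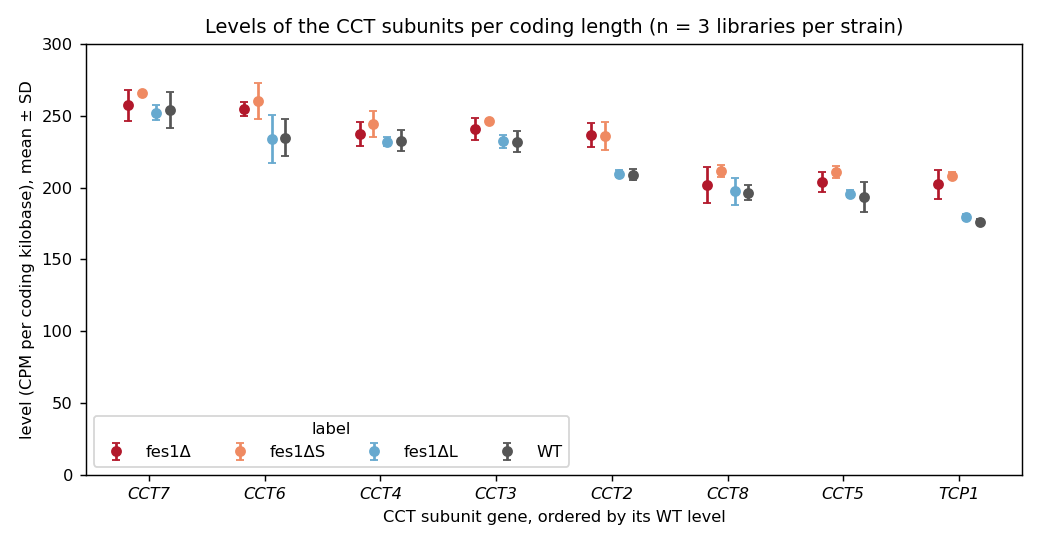
Level of each CCT subunit gene per kilobase of coding sequence (y axis, mean ± SD of 3 libraries per strain), ordered by the WT level. The fes1ΔL and WT points of TCP1 (179.6 and 176) are the lowest, and in fes1Δ and fes1ΔS TCP1 stands at 202 and 208, level with CCT8 and CCT5.

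Over the 12 libraries the correlation of log2 CPM between 2 subunit genes had a median of 0.79 over the 28 pairs, and ran from 0.29 (CCT6 with CCT8) to 0.94 (TCP1 with CCT2). The 5 lowest values, 0.29 to 0.46, were those of CCT6 with CCT3, CCT4, CCT5, CCT7 and CCT8. After the group means were taken out, the median was 0.64 and the range -0.33 to 0.86. The points of each pair come from the same libraries and share their scaling and 4 group means, so these values are a description, and other gene pairs were not measured for comparison. Among the libraries labelled fes1Δ, replicate 3 had the lowest level of each subunit gene but CCT6.

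By the same measure, the genes outside the ring whose levels followed the mean of the 8 CCT genes most closely were ILV2 (r = 0.96), YGL036W (0.95), ACT1 (0.95), YNL040W (0.94), KAP95 (0.93), GFA1 (0.93), APA1 (0.93) and ARB1 (0.93). They were ranked among 5095 genes over the same 12 libraries, which share 4 group means. ILV2, an enzyme of branched-chain amino acid synthesis, averaged 615 ± 64.5 CPM in the libraries labelled fes1Δ, 661 ± 10.1 CPM in fes1ΔS, 442 ± 14.4 CPM in fes1ΔL and 424 ± 30.7 CPM in WT. KAP95, the karyopherin beta of nuclear import, averaged 202 ± 23.6 CPM in fes1Δ, 229 ± 6.4 CPM in fes1ΔS, 173 ± 3.47 CPM in fes1ΔL and 166 ± 9.69 CPM in WT.

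ACT1, the actin gene and so a main client of CCT, was the gene of the actin and tubulin family that rose. It had 2928 ± 158 CPM in the libraries labelled fes1Δ, 3323 ± 81.2 CPM in fes1ΔS, 2542 ± 25.2 CPM in fes1ΔL and 2547 ± 103 CPM in WT (SD, n = 3 each). The log2 fold change against WT was 0.38 in fes1ΔS (interval 0.27 to 0.50, edgeR adjusted p = 8.47e-05), a call that held without any 1 of its 6 libraries and with total counts (0.29). In the libraries labelled fes1Δ it was 0.20 (edgeR adjusted p = 0.0183), and this call was lost without WT replicate 3 (0.0843), without the replicate 1 labelled fes1Δ (0.077), in a fit of these 2 groups alone (0.0984), with total counts (0.102) and in the limma fits on FPKM (0.125 to 0.148). Called shares over all tested genes against WT were 12.9% in fes1Δ, 6.66% in fes1ΔS and 0.0699% in fes1ΔL. Of the 7 actin and tubulin family genes, 1 was called higher and 2 lower in fes1Δ (median -0.10), 1 higher and 0 lower in fes1ΔS (median -0.05), and 0 in fes1ΔL (median -0.02). The lower ones in the libraries labelled fes1Δ were ARP2, a subunit of the actin-nucleating Arp2/3 complex (log2 fold change -0.31, edgeR adjusted p = 0.000614), and TUB4, the gamma-tubulin (-0.19, edgeR adjusted p = 0.0344). With total counts ARP2 (-0.23) and TUB4 (-0.23) were also called lower in fes1ΔS. The limma fits on FPKM also called ARP2 lower there (-0.24, limma adjusted p from 0.0149 to 0.0185). TUB4 lost its call in fes1Δ without WT replicate 1 (0.134) or 3 (0.12), without the replicates 2 (0.0841) or 3 (0.0632) labelled fes1Δ, with DESeq2 (0.0958) and in a fit of these 2 groups alone (0.106). TUB1, an alpha-tubulin, stood at -0.10 in fes1Δ and -0.05 in fes1ΔS, and TUB2, the beta-tubulin, at 0.04 and 0.08, none of them called.

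Prefoldin delivers actin and tubulin to CCT. Of its 6 genes, 0 were called higher and 1 lower in the libraries labelled fes1Δ (median -0.10), 0 higher and 2 lower in fes1ΔS (median -0.15), and 0 in fes1ΔL (median -0.07). Over all tested genes the called shares in these comparisons were 12.9%, 6.66% and 0.0699%. YKE2 had 66.7 ± 4.93 CPM in fes1Δ, 66.2 ± 3.95 CPM in fes1ΔS, 71.9 ± 3.06 CPM in fes1ΔL and 79.9 ± 5.03 CPM in WT. Its log2 fold change against WT was -0.26 in fes1Δ (edgeR adjusted p = 0.0163) and -0.28 in fes1ΔS (edgeR adjusted p = 0.0172). The fes1Δ call was lost without WT replicate 1 (0.109) or the replicates 1 (0.0691) or 2 (0.0787) labelled fes1Δ, and the fes1ΔS call without WT replicate 1 (0.119) or fes1ΔS replicate 1 (0.116). GIM4 fell in fes1ΔS (-0.27, edgeR adjusted p = 0.0317), a call lost without WT replicate 1 (0.126), without WT replicate 2 (0.0835), without the replicates 1 (0.158) or 2 (0.0793) of fes1ΔS, and in the limma fits on FPKM (0.118 to 0.124). The same limma fits called GIM4 lower in the libraries labelled fes1Δ (-0.30, limma adjusted p from 0.0393 to 0.0434), where edgeR did not.

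The tubulin folding cofactors act on tubulin after CCT. Of their 6 genes, 1 was called lower in the libraries labelled fes1Δ, where 12.9% of all tested genes were called. In fes1ΔS 1 was called lower (6.66% of all genes called), and in fes1ΔL 0 (0.0699%). Both calls were CIN2, at 9.54 ± 0.655 CPM in fes1Δ, 9.81 ± 0.408 CPM in fes1ΔS, 21.7 ± 1.31 CPM in fes1ΔL and 22.7 ± 2.03 CPM in WT. The log2 fold change of CIN2 against WT was -1.25 (SE 0.11) in fes1Δ and -1.21 (SE 0.11) in fes1ΔS, and both calls held without any 1 library. Of 3 genes for WD-repeat clients of CCT, CDC55, a regulatory subunit of protein phosphatase 2A, was called in fes1ΔS (0.21, edgeR adjusted p = 0.037). That call was lost in 5 of the 6 fits without 1 library, all but the fit without WT replicate 2 (0.115 without WT replicate 1, 0.127 without WT replicate 3, and 0.128, 0.077 and 0.101 without fes1ΔS replicates 1, 2 and 3), with total counts (0.17) and in the limma fits on FPKM (0.205 to 0.227).

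Other chaperone systems gave a scale for these differences. HSP60 and HSP10, the mitochondrial chaperonin and its lid, were called higher in the libraries labelled fes1Δ (log2 fold changes 0.64 and 0.52) and in fes1ΔS (0.90 and 0.62) against WT, and 0 of 2 were called in fes1ΔL. HSP60 averaged 1528 ± 85.1 CPM in fes1Δ, 1834 ± 65.5 CPM in fes1ΔS, 965 ± 53.9 CPM in fes1ΔL and 982 ± 60.3 CPM in WT. The 4 genes of the ribosome-bound Hsp70 system (SSB1, SSB2, SSZ1 and ZUO1) had 0 calls in each strain against WT. Of 17 targets of the heat shock factor Hsf1, 17 were called higher in fes1Δ (median log2 fold change 1.48) and 17 in fes1ΔS (1.31), and 0 in fes1ΔL (-0.05). TCP1, at 0.20 and 0.24, was below the lowest of these targets, 0.85 in fes1Δ and 0.87 in fes1ΔS.

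**Figure D5:**
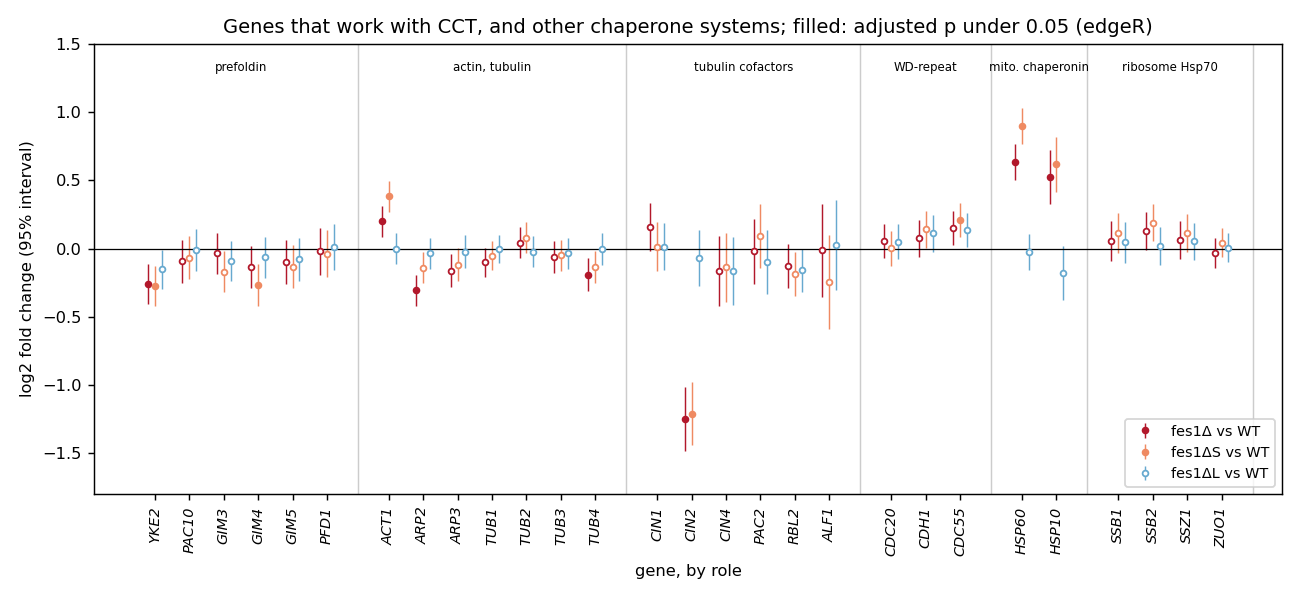
Log2 fold change against WT (y axis, with its 95% interval) of genes that work with CCT and of other chaperone systems, grouped by role; filled points were called by edgeR. ACT1, HSP60 and HSP10 stand above 0 and CIN2 below it in both fes1Δ and fes1ΔS (-1.25 and -1.21), while no fes1ΔL point is filled.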

How the data were processed

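The authors deposited whole-number counts per gene without normalization, and FPKM values (counts per gene length and depth). The submitters' processing notes name TopHat2 2.0.4 and HTSeq 0.6.1, Cufflinks 2.1.1, Picard 1.29, CASAVA and bcl2fastq 1.8.3, and the genome build sacCer2. The kit marks strand, per the labels' protocols, and no source used here says whether the counting used strand. In 2 tables, 12 columns have names that match no label and were not used. In the deposited FPKM table, 3501 genes have 24 values for 12 columns and were left out, CCT3, CCT5, CCT7 and CCT8 among them.

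Tests on counts used edgeR 4.0.16 under R 4.3.3 (robust quasi-likelihood F test, TMM, default expression filter by group). All 12 libraries at 25 °C entered a single fit, and Benjamini-Hochberg adjustment ran over the 5719 genes tested. A gene was called, and said to be higher or lower, at an adjusted p under 0.05. SE was derived from the F statistic. Alternatives used DESeq2 1.42.0 and limma 3.58.1. Replicate pairs differed by more than counting noise (chi-square per degree of freedom 2.64 to 15.1). Deviations of same-numbered libraries from their group means had 18 correlations from -0.19 to 0.29, of which 4 were above 0.1. Differently numbered libraries were not compared, so this does not settle whether the numbers pair libraries. A fit with the replicate number as a block is given below.

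The CCT genes, the gene lists and the tests were chosen with earlier results of these data known. All 8 CCT genes are named, and the 8 most similar genes are those with the highest Pearson correlation with the mean log2 CPM of CCT among tested genes at 10 CPM or more. Coding lengths came from the RefSeq annotation of assembly R64, in which no gene overlaps a CCT gene. Of the 7130 counted genes, 6048 match that annotation, and overlaps with the rest were not checked. The authors' build is a different one. Coordinates of R64 were used only for coding lengths, overlaps and neighbours, and promoter and protein sequences were not used here.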

Additional observations from a re-analysis of the deposited data

How the results depend on the processing

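For the CCT genes and the called genes of the gene lists and neighbours, no called log2 fold change turned its sign under the settings tried. The Hsf1 targets, the mating-type genes and all other genes were not followed in this way. Scaling by total counts or upper quartiles was chosen after seeing the data. The limma fits on FPKM tested 2819 genes, or 3108 without a filter, against 5719 in the main fit. Their numbers of called genes are therefore not on the same base as those of the main fit. In the libraries labelled fes1Δ against WT (2 CCT genes, 736 genes called), no expression filter left 1 CCT gene. A fit of these 2 groups gave 466 genes and 0 CCT genes. Total counts gave 1158 and 0, limma on log2(FPKM + 1) 410 (77 higher and 333 lower) and 0, on log2(FPKM + 0.1) 406 (78 and 328) and 0, and without a filter 403 (81 and 322) and 0, against 327 higher and 409 lower. In fes1ΔS against WT (1 and 381), DESeq2 called 2 CCT genes, total counts gave 903 genes and 0 CCT genes, and the FPKM fits 197 (62 higher and 135 lower), 199 (62 and 137) and 203 (62 and 141) genes, against 184 higher and 197 lower. In fes1ΔL against WT (4 genes), the fit of 2 groups called 10 and the FPKM fits 2, 1 and 1. In fes1Δ against fes1ΔS (141), the FPKM fits called 45, 46 and 47. In fes1ΔS against fes1ΔL (1 and 276), DESeq2 called 2 CCT genes, the fit of 2 groups 464 genes and 2 CCT genes, total counts 674 (115 higher and 559 lower, against 158 and 118) and 0, and limma on log2(FPKM + 1) or log2(FPKM + 0.1) 0 CCT genes. In fes1Δ against fes1ΔL (0 and 544), RLE factors, DESeq2 and upper-quartile factors each called 2 CCT genes, and total counts gave 952 genes (176 higher and 776 lower, against 252 and 292). FPKM fits hold 4 of the 8 CCT genes, TCP1 and CCT2 among them, whose log2 fold changes in fes1Δ against WT were 0.11 and 0.10 on log2(FPKM + 1) and 0.11 and 0.09 with total counts, against 0.20 and 0.18. The cause of these shifts was not tested.

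Leaving out 1 library gave 0 to 2 CCT genes and 486 to 1051 genes in fes1Δ against WT (486 without WT replicate 1), 1 to 1 and 251 to 410 in fes1ΔS against WT (251 without fes1ΔS replicate 2), 0 to 0 and 3 to 5 in fes1ΔL against WT, and 0 to 0 and 59 to 128 in fes1Δ against fes1ΔS (90, 73 and 59 without fes1ΔS replicates 2, 3 and 1). It gave 0 to 0 and 185 to 221 in fes1ΔS against fes1ΔL, and 0 to 2 and 354 to 576 in fes1Δ against fes1ΔL (354 and 359 without fes1ΔL replicates 3 and 2). With the replicate block the counts were 717, 402, 5, 138, 274 and 556 genes and 2, 1, 0, 0, 1 and 0 CCT genes, in the order fes1Δ, fes1ΔS and fes1ΔL against WT, fes1Δ against fes1ΔS, fes1ΔS against fes1ΔL and fes1Δ against fes1ΔL, so no count of CCT genes changed.

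Among the 4 subunits with FPKM, the share of TCP1 in their summed level was 21.1, 21.4, 20.2 and 20.01% by FPKM in fes1Δ, fes1ΔS, fes1ΔL and WT, against 21.7, 21.96, 21.0 and 20.7% by counts. CCT2 was at 27.1, 26.3, 25.9 and 26.0% by FPKM, against 25.4, 24.9, 24.5 and 24.5%, and CCT4 in fes1Δ at 24.8%, against 25.5%.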

Other observations

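The genes next to the CCT genes on the chromosome were read in the same fit. Of 16 neighbours, 15 were tested. Against WT, 12.9% of all tested genes were called in fes1Δ, 6.66% in fes1ΔS and 0.0699% in fes1ΔL. In the libraries labelled fes1Δ against WT, 1 was called: SSL2, a DNA helicase of the transcription factor TFIIH that lies 5′ of CCT2 on the opposite strand (log2 fold change 0.18, edgeR adjusted p = 0.0369). It had 143 ± 5.93 CPM in fes1Δ, 142 ± 3.86 CPM in fes1ΔS, 129 ± 2.37 CPM in fes1ΔL and 126 ± 4.75 CPM in WT (SD, n = 3 each). The call was lost without WT replicate 1 (0.121) or 3 (0.114), without the replicate 1 labelled fes1Δ (0.114), in a fit of these 2 groups alone (0.159), with total counts (0.225) and in the limma fits on FPKM (0.0881 to 0.128). Neither neighbour of TCP1 was called: GCD6, a subunit of the initiation factor eIF2B, had 216 ± 5.35 CPM in fes1Δ, 212 ± 1.46 CPM in fes1ΔS, 211 ± 6.72 CPM in fes1ΔL and 204 ± 10.4 CPM in WT. No neighbour was called in fes1ΔS or fes1ΔL against WT.

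HSP60 was lower in the libraries labelled fes1Δ than in fes1ΔS (log2 fold change -0.26, edgeR adjusted p = 0.0264), while none of the CCT genes was called between these strains. That call was lost in 5 of the 6 fits without 1 library, the exception being the fit without the replicate 1 labelled fes1Δ (0.0283). Of the 5 mating-type genes listed (MFA1, STE2, STE6, MF(ALPHA)1 and STE3), 4 were tested. In the libraries labelled fes1Δ against WT, MFA1 (-1.05) and STE2 (-0.58), which a cells express, were called lower. STE3 (1.90), which alpha cells express, was called higher, and 1 of the 4 was not called. Levels of these genes are not given here. In fes1ΔS, MFA1 (-0.88) and STE2 (-0.37) were called lower and 2 were not called, and in fes1ΔL none of the 4 was called.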
